A study of Equus caballus with 10 samples.

Results

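Of the 10 expression arrays of stallion sperm RNA in this study, 3 carried a low overall signal, and they are described here against the other 7. They were chosen by their own values: the median log2 signal over all 30559 probe sets was at most 5.1 on the arrays of stallions 2, 9 and 10 and at least 5.2 on those of stallions 1 and 3 to 8. The array of stallion 2, at 5.1, lay just inside this limit and that of stallion 6, at 5.24, just outside it. Because the same values made the split, the differences below are a description of these arrays and carry no test.

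Each array held sperm RNA (Equus caballus) of 1 warmblood stallion of breeding age, kept at an insemination centre, and the study laid the stallions out by season and fertility class. The low-signal arrays came from stallion 2 (autumn, high fertility), stallion 9 (spring, high fertility) and stallion 10 (spring, low fertility). The other arrays came from stallion 1 (autumn, high), stallions 3 and 4 (spring, high), stallions 5 and 6 (autumn, low) and stallions 7 and 8 (spring, low), so the autumn low-fertility group held no low-signal array. All 10 share the same protocols in the labels: 4 ejaculates per stallion, TRI Reagent extraction, DNase treatment, column clean-up, and biotin-labelled cRNA made from a fixed amount of total RNA. The sources used here do not say how fertility was measured or whether the ejaculates were combined, and each array is another animal, so the spread between arrays holds animal and handling together. The sample title of stallion 9 starts as the autumn titles do, although its season field says spring, and the labels place all sampling in the breeding season. The titles of stallions 9 and 10 also lack the running number that the other 8 carry, and the part of this in their signal was not tested. Arrays are named below by the number of their stallion.

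A mature sperm cell no longer transcribes its genome. The RNA it carries is left over from the spermatid, the haploid cell that builds the acrosome and tail and repacks its DNA, with transition proteins taking the place of histones and protamines then taking theirs. Most of the cytoplasm and its ribosomes are shed before the sperm is released, and an ejaculate also holds some leukocytes and epithelial cells of the tract. Fewer cells of one kind and less RNA per cell cannot be told apart in such RNA.

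The low signal showed at the median and in the upper part of the range, but not in the brightest probe set. On the arrays of stallions 2, 9 and 10 the medians were 5.1, 5.07 and 5.08, against 5.24 to 5.49 on the other 7. The signal reached by the top hundredth of the probe sets was 8.90 to 9.01, against 9.36 to 9.67, whereas the brightest probe set stood at 13.96 to 13.97, against 13.97 to 14.10. Between 746 and 792 probe sets reached a log2 signal of 8 on the low-signal arrays, against 1134 to 1433 on the others. No deposited value lies below 4, and 2764 to 2920 probe sets sat on that floor, against 842 to 2129. A difference near the floor is therefore understated.

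**Figure D1:**
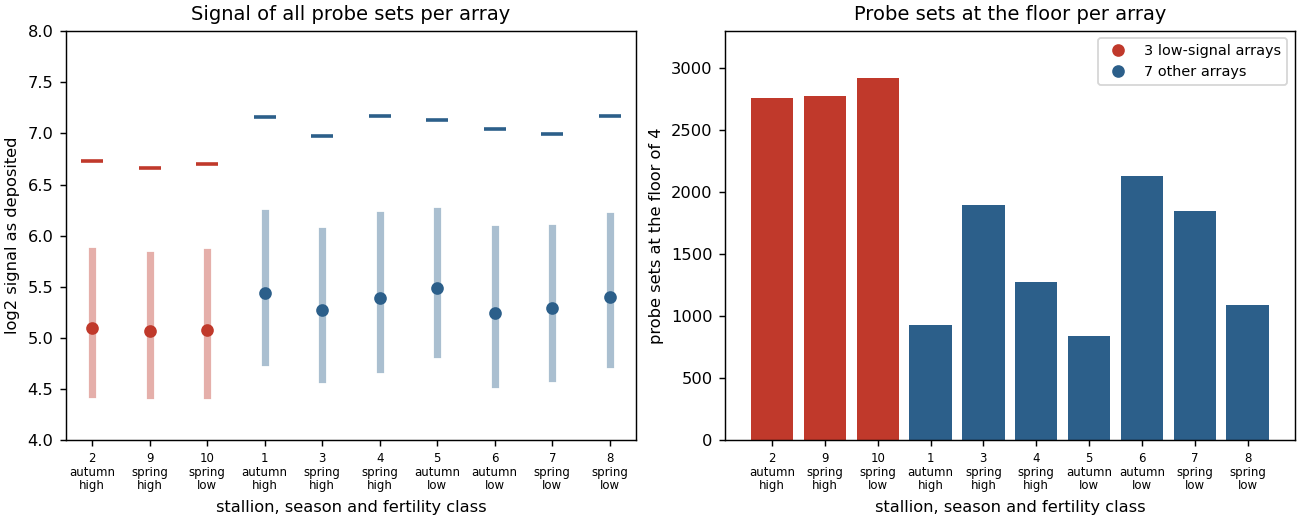
Signal of 30559 probe sets on each array as deposited. Left, the log2 median (point), the middle 50% of probe sets (bar) and the signal that the top 10% exceed (dash); right, the number of probe sets at the floor of 4. The arrays of stallions 2, 9 and 10 (red) have medians of 5.07 to 5.1 and 2764 to 2920 probe sets at the floor, against medians of 5.24 to 5.49 and 842 to 2129 at the floor on the other 7 (blue).

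Across probe sets, the low-signal arrays correlated with each other at r between 0.856 and 0.893 (3 pairs), the others with each other at 0.858 to 0.918 (21 pairs), and a low-signal with another array at 0.791 to 0.876 (21 pairs). These values are across 30559 probe sets, which are not independent replicates. No 2 arrays held identical values.

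A probe set was counted as lower where all 3 low-signal arrays lay below all 7 others, and as higher where all 3 lay above. As deposited, 3468 probe sets (11.3%) were lower and 241 (0.789%) were higher. After quantile normalization, which gives all arrays one distribution, 1172 (3.84%) were lower and 1668 (5.46%) were higher. The difference used throughout is the median of the 3 low-signal arrays minus the median of the other 7, on the log2 scale. Over all probe sets its median was -0.20 as deposited and 0.04 after quantile normalization, and a list of genes is read against these shifts. Differences of -1 or below were found for 2121 probe sets as deposited and 902 after quantile normalization, and differences of 1 or above for 160 and 492.

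The share of lower probe sets depended on how bright a probe set was. With all probe sets ordered by mean signal over all arrays and cut into 10 bins of about equal size, the dimmest bin had 1.28% lower probe sets as deposited and a median difference of -0.02, and the brightest had 22.3% and -0.39. After quantile normalization the brightest bin held 8.48% lower and 9.62% higher probe sets, with a median difference of 0.06. Among the 100 brightest probe sets, 29 were lower and 2 higher as deposited, and 8 were lower and 8 higher after quantile normalization. On that scale both directions were more frequent in the brightest bin than in the dimmest, which held 0.491% lower and 5.86% higher probe sets.

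The tissue label was checked against defining markers. Of 10 sperm markers 9 were measured, and their mean was 9.50 to 10.08 on the low-signal arrays and 10.95 to 11.95 on the others. On every array this mean was above that of each other marker list. Leukocyte markers (9 of 10 measured) averaged 5.15 to 5.35, against 5.16 to 5.66, and epithelial markers (4 of 7) averaged 5.19 to 5.78, against 5.13 to 5.70. Stromal markers (4 of 4) averaged 5.50 to 5.74, against 5.32 to 6.11. Red cell markers (3 of 4) averaged 5.09 to 5.37, against 5.43 to 5.93, Sertoli and Leydig cell markers (3 of 4) 4.71 to 5.05, against 4.99 to 5.27, and markers of earlier germ cells (4 of 4) 5.28 to 5.74, against 5.58 to 5.84. Apart from the red cell list the ranges of these other cell types overlapped. All these means are as deposited, where the low-signal arrays lay lower in general. After quantile normalization the red cell markers HBB, ALAS2 and SLC4A1 each overlapped between the sets of arrays, with differences of -0.15, 0.11 and 0.11. CD3E, a T cell receptor component, was at the floor on arrays 2 and 10 and on array 7. The part of other cells in the differences below was not tested.

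Genes were grouped into 30 lists, with 1 probe set per gene. Of all 16661 genes measured, 2486 (14.9%) were lower and 97 (0.582%) higher as deposited, and 825 (4.95%) were lower and 872 (5.23%) higher after quantile normalization. The median difference over all genes was -0.25 as deposited and 0.02 after quantile normalization. As deposited every one of the 30 lists had a negative median. After quantile normalization 11 had a negative and 18 a positive median. The mean of a list was lower on all 3 arrays for 25 lists as deposited and for 9 after quantile normalization, and higher on all 3 for 1 list, that of cadherins, after quantile normalization.

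**Figure D2:**
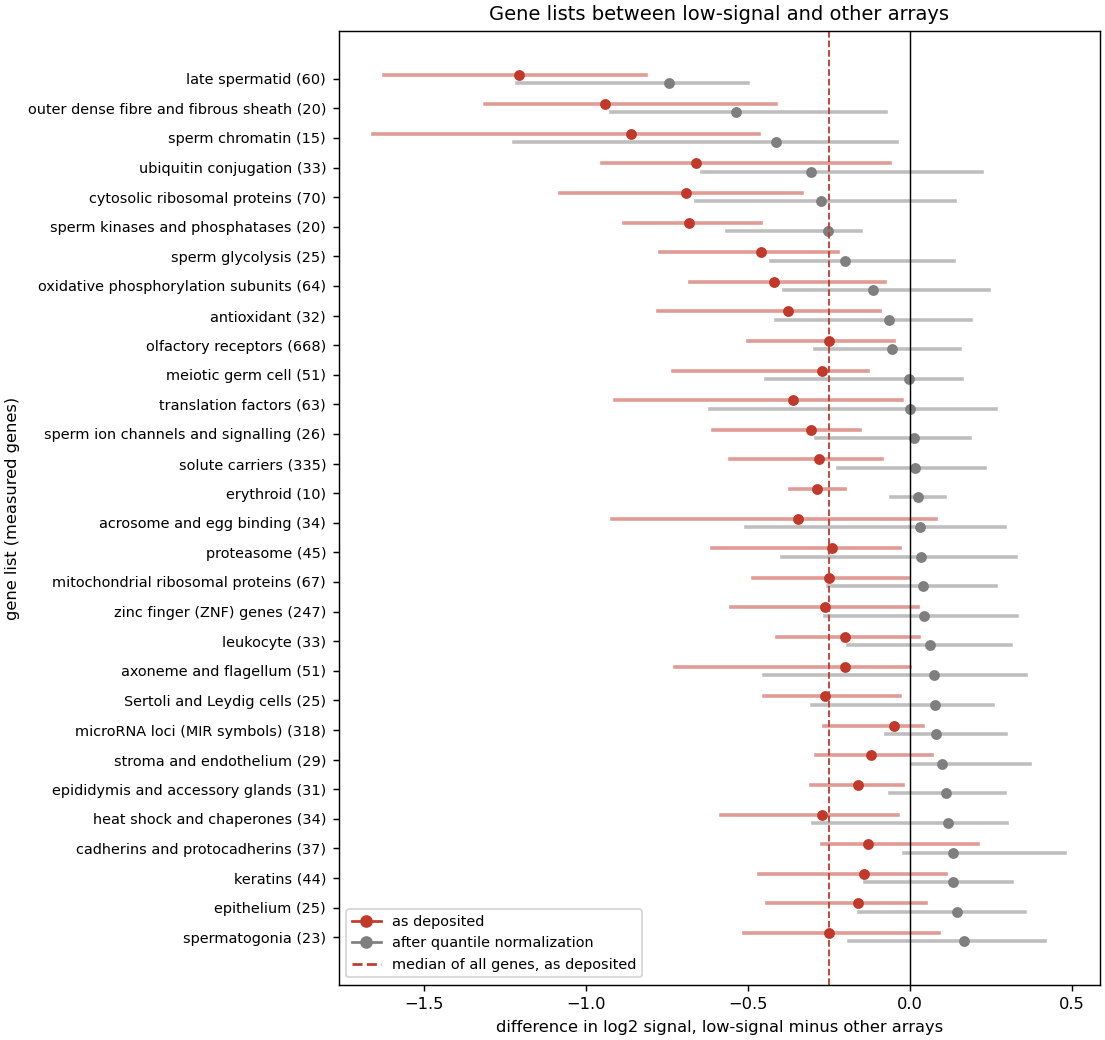
Median difference in log2 signal, low-signal minus other arrays, for the genes of each list as deposited (red) and after quantile normalization (grey), with bars over the middle 50% of the list's genes and the number of measured genes in brackets. The late spermatid list lies farthest to the left on both scales, at -1.21 and -0.74, while the lists at the bottom lie left of 0 as deposited and right of it after quantile normalization.

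Transcripts of late spermatids were lower on the low-signal arrays by more than any other list on both scales. All 60 measured genes of this list (of 88) had a negative difference as deposited, with a median of -1.21, and 56 of them kept a negative sign after quantile normalization, with a median of -0.74. Of the 60 genes 37 (61.7%) were lower as deposited and 21 (35.0%) after quantile normalization, against 14.9% and 4.95% of all genes. None was higher on either scale. The list averaged 6.65, 6.61 and 6.35 on the arrays of stallions 2, 9 and 10, against 7.35 to 8.36 on the others. For comparison, the brightest bin of probe sets had a mean signal of 7.86, against 7.44 for this list. The median difference of that bin was -0.39 as deposited and 0.06 after quantile normalization, with 22.3% and 8.48% lower.

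FHL5, a coactivator of the spermatid transcription factor CREM in mouse, stood at 4.54, 4.67 and 4.73 on arrays 2, 9 and 10, against 6.30 to 8.63 with a median of 7.26 on the others. CAPZA3, an actin-capping subunit of the sperm head, stood at 5.80, 5.47 and 5.68, against 7.23 to 9.97 with a median of 7.91. Neither gene overlapped between the low-signal arrays and the others. SPATA7 stood at 7.17, 6.77 and 6.57, against 7.90 to 9.99 with a median of 8.93. IQCF1 stood at 6.79, 6.44 and 6.58, against 8.0 to 10.23 with a median of 8.65. The differences of these 4 genes, those largest in size in the list, ran from -2.59 to -2.07 as deposited and from -2.27 to -1.59 after quantile normalization.

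Genes of sperm chromatin were mostly lower, but the members differed in size and direction. The median difference over the 15 measured genes (of 23) was -0.86 as deposited and -0.41 after quantile normalization. Of these genes 8 (53.3%) were lower as deposited and 5 (33.3%) after quantile normalization, against 14.9% and 4.95% of all genes, and none was higher. The 2 transition protein genes differed most. TNP1 stood at 10.30, 9.79 and 9.80 on arrays 2, 9 and 10, against 11.63 to 12.98 with a median of 11.89, a mean of 9.96 ± 0.29 against 12.15 ± 0.56 (SD, n = 3 and 7). TNP2 stood at 10.62, 10.56 and 10.03, against 11.99 to 13.08 with a median of 12.64. Neither gene overlapped between the sets of arrays, and the differences, -2.09 and -2.08 as deposited, were -1.61 and -1.74 after quantile normalization.

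The protamine genes, whose products pack the DNA of the finished sperm, did not share one difference. PRM2 stood at 7.92, 8.10 and 7.26, against 9.15 to 11.19 with a median of 9.79, a difference of -1.87 as deposited and -1.58 after quantile normalization. PRM1 stood at 11.85, 12.33 and 11.58, against 12.69 to 13.43 with a median of 13.29, a difference of -1.44 as deposited and -0.72 after quantile normalization, where the arrays overlapped. PRM3, a protamine-like gene, stood at 8.60, 8.70 and 8.95, against 9.09 to 10.29 with a median of 9.33, and its difference of -0.63 as deposited shrank to -0.08 after quantile normalization.

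PHF7, a histone ubiquitin ligase needed in mouse spermatids for histone removal, stood at 7.33, 7.63 and 6.93, against 8.71 to 9.36 with a median of 8.93, and was lower on both scales. ZPBP2, a zona-pellucida binding protein gene held in this list, was lower on both scales as well, at 4.59 to 5.14 against 5.48 to 7.07. HMGB4, a high-mobility-group protein of spermatids, stood at 10.94, 10.26 and 10.33, against 10.83 to 12.54 with a median of 12.04, so array 2 reached into the range of the others. TSSK6, a spermatid kinase, was lower as deposited, at 8.94 to 9.76 against 9.98 to 10.94, and overlapped after quantile normalization with a difference of -0.37. The testis histone gene H3-4 did not go with the rest: it stood at 7.06, 7.33 and 7.42, against 6.73 to 7.46 with a median of 7.11, a difference of 0.22 as deposited and 0.76 after quantile normalization, with overlap on both scales. The chromatin remodelling genes CHD5 and BRWD1, the bromodomain gene BRDT, the testis histone gene H2BC1 and EPC1 overlapped between the sets of arrays on both scales, with differences of -0.76 to -0.16 as deposited and -0.41 to 0.20 after quantile normalization.

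**Figure D3:**
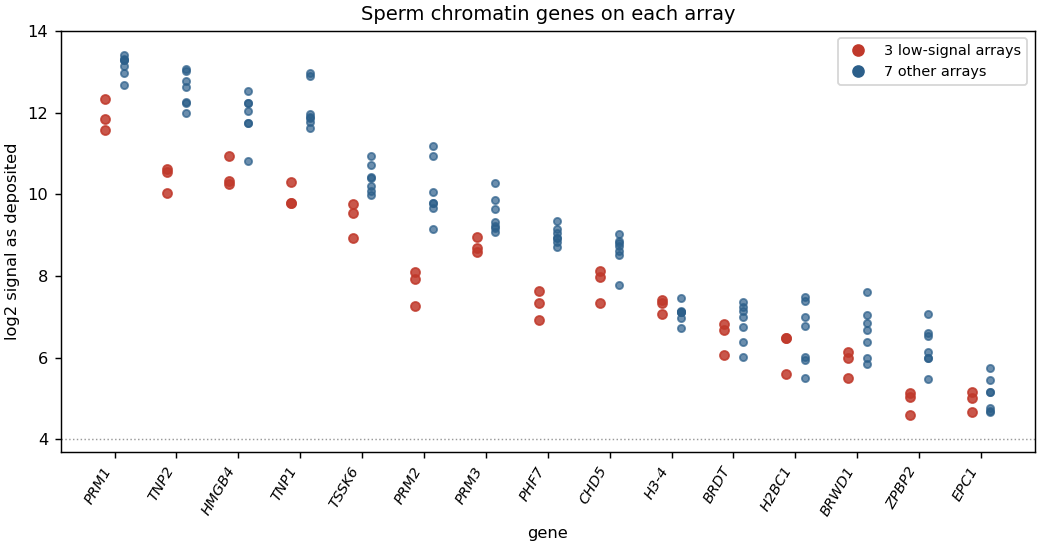
Log2 signal as deposited of the 15 measured sperm chromatin genes on the 3 low-signal arrays (red) and the 7 others (blue), 1 point per array, with the floor of 4 dotted. TNP1, TNP2, PRM1, PRM2 and PHF7 are separated between the sets of arrays, whereas H3-4, BRDT, H2BC1 and EPC1 overlap.

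Genes of the outer dense fibres and fibrous sheath, the stiff casing of the tail, came next in order after those of late spermatids. Their median difference was -0.94 as deposited and -0.54 after quantile normalization over 20 measured genes (of 22). Of these, 11 (55.0%) were lower as deposited, and 4 (20.0%) lower and 1 (5.0%) higher after quantile normalization. The shares of all genes were 14.9%, 4.95% and 5.23%. AKAP4, the main scaffold of the fibrous sheath, stood at 8.70, 8.21 and 8.22, against 9.57 to 11.10 with a median of 10.45. CABYR, a calcium-binding protein of the sheath, stood at 8.0, 8.74 and 7.62, against 9.59 to 11.30 with a median of 10.22. The ropporin genes ROPN1L and ROPN1 stood at 7.51 to 8.75 and 5.78 to 5.96, against 9.48 to 11.04 and 7.20 to 9.20. These 4 genes were lower on both scales.

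The outer dense fibre genes ODF1 and ODF2 were unlike each other. ODF1 stood at 9.88, 10.84 and 9.53, against 10.93 to 12.06 with a median of 11.28, so that array 9 lay just below the others, and after quantile normalization the sets of arrays overlapped with a difference of -1.17. ODF2 stood at 10.07, 10.98 and 10.66, against 11.01 to 11.75 with a median of 11.28, and its difference of -0.62 as deposited was -0.05 after quantile normalization. SPA17, a sperm surface protein gene, stood at 7.97, 10.10 and 9.89 on arrays 2, 9 and 10, against 10.20 to 11.53 on the others, so all 3 were lower as deposited and array 2 lay far below the rest. Its difference of -0.66 as deposited was -0.20 after quantile normalization, where the sets of arrays overlapped.

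Other sperm structures were mixed. The axoneme list, the microtubule core of the tail, had a median of -0.20 over 51 genes as deposited and 0.08 after quantile normalization. Of these genes 9 (17.6%) were lower as deposited and 4 (7.84%) after quantile normalization, near the 14.9% and 4.95% of all genes. In the axoneme list MEIG1, required for the spermatid manchette in mouse, stood at 6.41, 6.62 and 6.80, against 7.64 to 10.19 with a median of 8.32. TEKT3, a tektin, stood at 5.04 to 5.05, against 5.77 to 6.92. Both were lower on both scales. The list of the acrosome and egg binding had a median of -0.35 over 34 genes as deposited and 0.03 after quantile normalization. Of these, 10 (29.4%) were lower as deposited, and 4 (11.8%) lower and 3 (8.82%) higher after quantile normalization. The shares of all genes were 14.9%, 4.95% and 5.23%. PRSS37, a serine protease-like protein needed for fertility in male mice, stood at 5.78, 5.94 and 5.86, against 7.58 to 9.58 with a median of 8.09. CRISP2, an acrosome and tail protein, stood at 9.08, 9.79 and 8.57, against 9.91 to 11.21, and overlapped after quantile normalization.

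For ion channels and signalling the median was -0.31 over 26 genes as deposited and 0.01 after quantile normalization. PLCZ1, the phospholipase that sets off calcium waves in the egg, was lower on both scales within this list, at 5.94, 5.48 and 5.29, against 6.47 to 9.03 with a median of 7.23. The list of sperm kinases and phosphatases lay lower, at -0.68 over 20 genes as deposited and -0.25 after quantile normalization. Of these 20 genes 8 (40.0%) were lower as deposited, against 14.9% of all genes. After quantile normalization 2 of the 20 were lower and 1 was higher, against 4.95% and 5.23% of all genes, and these are small counts. PPP1R2, an inhibitor of protein phosphatase 1, stood at 7.43, 7.93 and 7.40, against 8.93 to 10.85 with a median of 9.37.

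**Figure D4:**
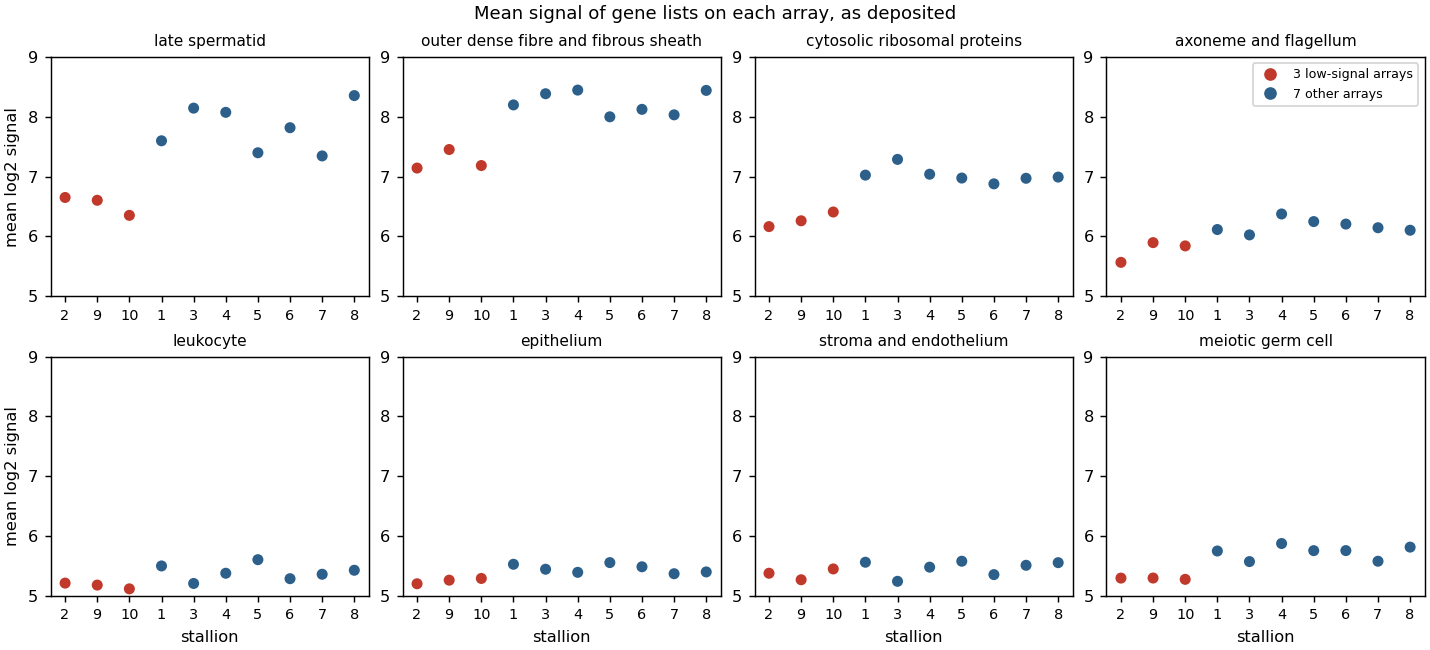
Mean log2 signal of 8 gene lists on each array as deposited, low-signal arrays (red) left of the others (blue). The late spermatid list averages 6.35 to 6.65 on the low-signal arrays and 7.35 to 8.36 on the others, while the leukocyte list averages 5.12 to 5.21 and 5.21 to 5.60 and the stroma and endothelium list 5.27 to 5.45 and 5.24 to 5.58.

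Among genes of general cell functions, those for the cytosolic ribosome and for ubiquitin conjugation lay lowest on both scales. The 70 cytosolic ribosomal protein genes had a median of -0.69 as deposited and -0.27 after quantile normalization. Of these, 31 (44.3%) were lower as deposited, and 14 (20.0%) were lower and 1 (1.43%) was higher after quantile normalization. The shares of all genes were 14.9%, 4.95% and 5.23%. The list averaged 6.17, 6.26 and 6.41 on arrays 2, 9 and 10, against 6.88 to 7.29 on the others. RPL38 stood at 7.77, 6.87 and 6.92, against 8.55 to 10.05 with a median of 8.82, and RPL17 at 6.52, 6.58 and 6.67, against 7.63 to 9.45 with a median of 8.21. Ribosomal protein genes have many near-identical copies in mammalian genomes, so their probe sets may share signal. The 67 mitochondrial ribosomal protein genes, by contrast, had a median of -0.25 as deposited, equal to that of all genes, and 0.04 after quantile normalization. On the quantile-normalized scale 1 of them (1.49%) was lower and 8 (11.9%) were higher, against 4.95% and 5.23% of all genes.

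Translation factors had a median of -0.36 over 63 genes as deposited and 0.00 after quantile normalization, but a subset stood far below. Of the 63 genes 22 (34.9%) were lower as deposited, and 8 (12.7%) lower and 2 (3.17%) higher after quantile normalization. The shares of all genes were 14.9%, 4.95% and 5.23%. GSPT1, the release factor eRF3a, stood at 5.74 on array 2 and at the floor of 4 on arrays 9 and 10, against 6.13 to 6.60 on the others. Its difference of -2.39 is therefore understated. EIF3J and EIF3H, of the initiation factor eIF3, stood at 5.2 to 5.94 and 5.84 to 6.08, against 6.95 to 9.63 and 7.24 to 9.48, and were lower on both scales.

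The ubiquitin conjugation list, made of ubiquitin and its activating and conjugating enzymes, had a median of -0.66 over 33 genes as deposited and -0.31 after quantile normalization. Of these genes 8 (24.2%) were lower as deposited, and 4 (12.1%) lower and 1 (3.03%) higher after quantile normalization. The shares of all genes were 14.9%, 4.95% and 5.23%. UBE2J1, a conjugating enzyme of the endoplasmic reticulum needed for spermiogenesis in mouse, stood at 7.61, 7.73 and 6.76, against 8.88 to 9.72 with a median of 9.25. UBE2D3 stood at 6.42, 5.48 and 6.13, against 7.09 to 9.08 with a median of 7.68. The proteasome, which degrades the tagged proteins, had a median of -0.24 over 45 genes as deposited and 0.03 after quantile normalization.

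Genes of energy supply lay between these. The glycolysis list had a median of -0.46 over 25 genes as deposited and -0.20 after quantile normalization, and GAPDHS, the sperm form of glyceraldehyde-3-phosphate dehydrogenase, stood at 8.64, 8.12 and 8.28, against 8.92 to 9.78 with a median of 9.56. Subunits of oxidative phosphorylation had a median of -0.42 over 64 genes as deposited and -0.11 after quantile normalization. Of these, 17 (26.6%) were lower as deposited, and 7 (10.9%) lower and 1 (1.56%) higher after quantile normalization. The shares of all genes were 14.9%, 4.95% and 5.23%. NDUFA9, a complex I subunit, stood at 5.29, 5.25 and 4.94, against 5.63 to 7.53 with a median of 7.13. In the antioxidant list, at -0.38 over 32 genes as deposited and -0.06 after quantile normalization, the spermatid thioredoxin TXNDC8 stood at 5.26, 5.12 and 4.66, against 6.44 to 9.23, and the peroxiredoxin PRDX6 at 5.39, 5.92 and 5.21, against 6.91 to 8.31.

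Lists of other cell types and of large gene families lay nearer to the shift of all genes, negative as deposited and mostly positive after quantile normalization. Meiotic germ cell genes had a median of -0.27 as deposited and -0.002 after quantile normalization, and spermatogonial genes -0.25 and 0.17. The leukocyte list stood at -0.20 as deposited and 0.06 after quantile normalization, the stroma and endothelium list at -0.12 and 0.10, the epithelium list at -0.16 and 0.15, the list of epididymis and accessory glands at -0.16 and 0.11, and that of Sertoli and Leydig cells at -0.26 and 0.08. No gene of the 29 in the stroma and endothelium list was lower on either scale, against 14.9% and 4.95% of all genes. After quantile normalization 3 (10.3%) were higher, against 5.23% of all genes, and these are small counts. Zinc finger genes of the ZNF family had medians of -0.26 and 0.05 over 247 genes, and solute carriers -0.28 and 0.02 over 335. The 668 olfactory receptor genes had medians of -0.25 and -0.06, with 73 (10.9%) lower as deposited, against 14.9% of all genes. Their mean signal of 4.77 lies close to the floor, where differences are understated.

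A few members departed from their list. OR4C16 stood at 4.14, 4.30 and 4.29, against 4.90 to 6.96, and OR1F1D went the other way, at 4.77, 6.39 and 6.17, against 4.22 to 4.64. Both are odorant receptor genes and were separated on both scales. KRT5, a keratin of basal epithelium, stood at 6.16, 5.85 and 5.58, against 4.94 to 5.75, overlapping as deposited and higher after quantile normalization, with differences of 0.73 and 0.97. ESAM, an endothelial adhesion molecule gene, stood at 7.23, 7.02 and 7.40, against 5.82 to 7.36, again overlapping as deposited and higher after quantile normalization.

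Leading genes were taken from the probe sets separated on both scales, 1172 lower and 241 higher, which are all that were lower after quantile normalization and all that were higher as deposited. Their numbers follow from the shift between the scales and say nothing about direction. Among those with 1 gene symbol and a mean of at least 6 in the brighter set of arrays, CFAP126 had the most negative difference after quantile normalization. CFAP126, also called Flattop, is a cilia and flagella protein, and stood at 5.87, 5.88 and 5.01, against 7.38 to 9.75 with a median of 9.09, a mean of 5.59 ± 0.50 against 8.77 ± 0.90 (SD, n = 3 and 7). Its difference was -3.22 as deposited and -2.67 after quantile normalization.

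Next to it in this ranking stood FHL5, TRIM42, GSPT1, TMCO5A, FSCN3, MAPRE3, LOC100051500, TXNDC8, H2AL3, LOC100049919, ROPN1L, COMMD3, C10H6orf163 and DYRK4, with differences after quantile normalization of -2.27 to -1.93. FSCN3, the testis form of the actin bundler fascin, stood at 6.22, 6.87 and 5.53, against 7.79 to 9.82 with a median of 8.57. H2AL3, an H2A-like histone gene, stood at 8.05, 8.27 and 7.57, against 9.27 to 10.82 with a median of 10.64. DYRK4, a testis-rich kinase in other mammals, was at the floor on array 10.

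At the other end, RFLNB stood clearly above. RFLNB encodes refilin B, which binds the actin crosslinker filamin, and stood at 7.42, 7.55 and 7.19, against 4.44 to 5.13 with a median of 5.05, a mean of 7.39 ± 0.18 against 4.89 ± 0.28 (SD, n = 3 and 7). Its difference was 2.37 as deposited and 2.81 after quantile normalization. RAG2, a subunit of the recombinase of lymphocyte receptor genes, stood at 5.73, 6.66 and 6.34, against 4.00 to 4.66 with a median of 4.46. WNT9A, a secreted Wnt ligand, stood at 8.04, 7.99 and 7.20, against 6.35 to 6.87, and GATA2, a transcription factor of blood progenitors, at 7.08, 6.74 and 8.05, against 5.65 to 6.37. The others of the 15 were EXOC3L2, LOC100063322, TMOD1, MYADML2, LOC100049899, MIR363, RAC3, SLC7A6OS, FIZ1, CABP4 and LLPH, with differences of 0.61 to 1.23 as deposited and 1.02 to 1.76 after quantile normalization.

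**Figure D5:**
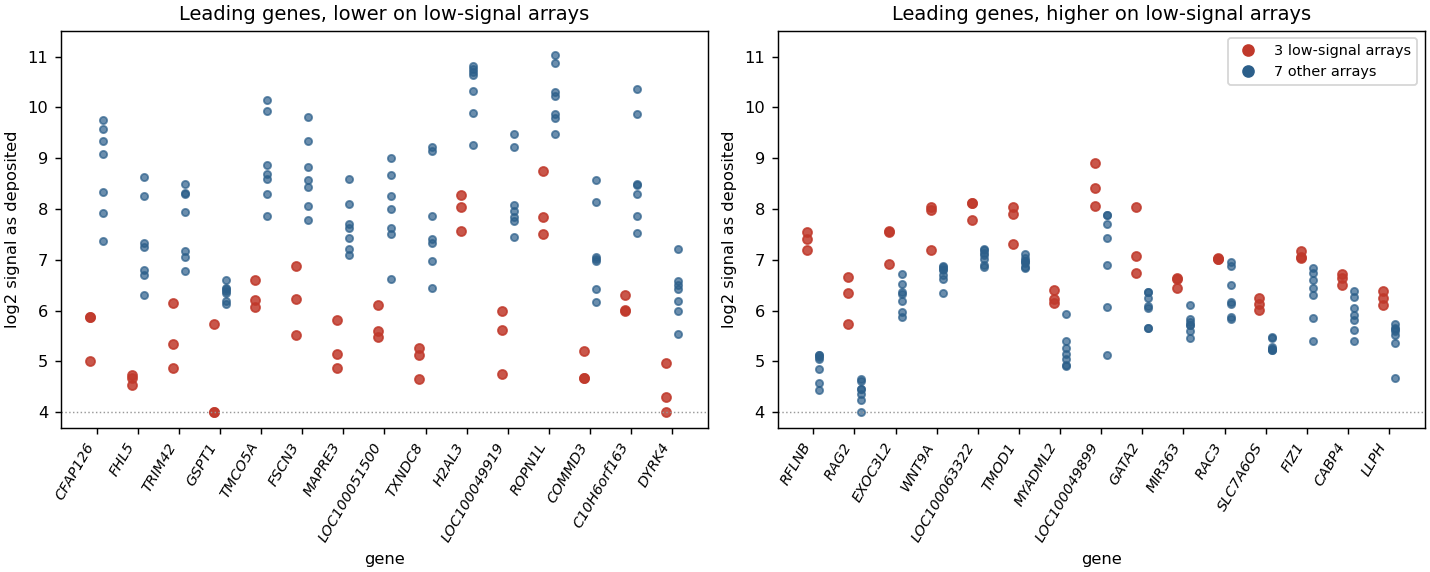
Log2 signal as deposited on the 3 low-signal arrays (red) and the 7 others (blue) for the 15 named genes with the most negative (left) and the 15 with the most positive difference after quantile normalization (right), among those separated on both scales with a mean of at least 6 in the brighter set of arrays; the floor of 4 is dotted. Differences after quantile normalization run from -2.67 for CFAP126 to -1.93 for DYRK4 on the left and from 2.81 for RFLNB to 1.02 for LLPH on the right.

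Among the 15 brightest probe sets with a gene symbol, the differences were far from uniform. TNP1, TNP2 and HMGB4 lay at the low end as deposited, followed by CRISP2 at -1.51, while ODF2 and LELP1, a late cornified envelope-like gene of the spermatid list, stood at -0.62 and -0.63, or -0.05 and -0.12 after quantile normalization. ZNF408, a zinc finger gene, stood at 9.97, 10.23 and 10.20, against 9.63 to 10.93 with a median of 10.01, a difference of 0.19 as deposited and 0.62 after quantile normalization. LOC100070085, which the annotation gives no other name, had a difference of -0.67 as deposited and -0.02 after quantile normalization. Signals of different probe sets do not rank the abundance of their transcripts, since probes differ in binding.

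Set against other stallions of the same season and fertility class, the low-signal arrays had negative medians in the lists that lay lowest. Those lists were picked by differences on these same arrays, so negative medians here are in part built in and are no separate evidence. Array 2 had only array 1 to compare with, and the comparison of array 9 rests on its season field, which its title does not match. After quantile normalization the median of the late spermatid list was -0.50 on array 2 against array 1, -1.07 on array 9 against the mean of arrays 3 and 4, and -1.01 on array 10 against the mean of arrays 7 and 8. For outer dense fibres and fibrous sheath the medians were -0.60, -0.40 and -0.47, for sperm chromatin -0.46, -0.42 and -0.69, and for cytosolic ribosomal proteins -0.46, -0.53 and -0.22. Of the 30 lists 9 had a negative and 8 a positive median in all 3 of these differences. Across the 30559 probe sets, the differences of arrays 9 and 10 correlated at r = 0.47, those of arrays 2 and 10 at 0.396 and those of arrays 2 and 9 at 0.276. These are descriptions across probe sets of one platform, and the 3 differences share no array.

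The late spermatid signal also varied among the other 7 arrays, and not in the order of their medians. The list averaged 8.36 on array 8, 8.15 on array 3 and 8.08 on array 4, and 7.35 on array 7, 7.40 on array 5 and 7.6 on array 1. Array 5 had the highest median of all, 5.49, and array 3 one of the lower, 5.27. TNP1 stood at 12.98 and 12.91 on arrays 3 and 8 and at 11.63 to 11.97 on the other 5, and MEIG1 at 9.90 and 10.19, against 7.64 to 8.37. Arrays 3 and 8 differ in fertility class and share the season.

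Probe sets without a gene symbol held up better than named ones. Of 13427 without a symbol 921 (6.86%) were lower as deposited, with a median difference of -0.13, against 2422 of 16169 with 1 symbol other than LOC, with a median of -0.26. Those without a symbol were also dimmer, at a mean of 5.29 against 5.63. A block of 82 unnamed probe sets with the lowest identifier numbers, noticed after the values were seen, had none lower and 2 higher as deposited, with a median of 0.06, and 22 (26.8%) higher after quantile normalization, with a median of 0.34. The sources used here do not say what these 82 probe sets measure. Their mean stood at 5.79, 5.50 and 5.68 on arrays 2, 9 and 10, against 5.47 to 5.65 on the others.

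The study's own comparisons gave few calls with or without the low-signal arrays. With all 10 arrays, limma (Benjamini-Hochberg adjusted p under 0.05) called 1 of 30559 probe sets (0.00327%) for spring minus autumn, and the same probe set for low minus high fertility. This was LOC100061699, named for its call, a locus with no other name in the annotation, which stood between 5.43 and 6.26 on the 6 spring arrays, against 6.15 and 6.18 on the autumn high-fertility arrays 1 and 2 and 11.14 and 11.03 on the autumn low-fertility arrays 5 and 6. The season difference was averaged over fertility classes and the fertility difference over seasons, so both calls rest on the same arrays, 5 and 6. With a term for the low-signal arrays the season difference of this locus was -2.89 (SE 0.19, limma adjusted p = 0.00572). Its fertility difference was then 2.51 (SE 0.20, limma adjusted p = 0.0238), so both calls held. Without the 3 arrays, limma called 0 probe sets for either, with 1458 and 766 at an unadjusted p under 0.05, and the season difference of LOC100061699 was -2.85 (SE 0.27, limma adjusted p = 0.991). The residual degrees of freedom were then 3, against 6 with all arrays. With the term, 1931 probe sets had an unadjusted limma p under 0.05 for season and 1224 for fertility, against 1278 and 790 without it. With no difference at all, a share of about 0.05 of the 30559 probe sets would fall under this limit. The unadjusted counts are therefore no count of changed probe sets, and their rise with the term was not tested.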

How the data were processed

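Sperm RNA of 10 stallions was measured on 10 Affymetrix arrays, 1 per stallion. The authors deposited log2 signals per probe set with 2 decimals; GCOS 1.1.1 and Affymetrix Expression Console 1.1 are named per the submitters' processing notes, while the sources used here do not say how signals were summarised, background-corrected and scaled. The floor of 4 is the only sign of background in the values, and precision is limited by the number of arrays. Seasons and fertility classes came from the sample characteristics. All 10 value columns were used, with 0 left out.

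Array medians were computed and the arrays split at 5.1 and 5.2. Quantile normalization used limma 3.58.1 (normalizeQuantiles) in R 4.3.3, and counts and medians were computed in Python 3.11.15 with pandas 2.3.3. Per gene, the probe set with 1 symbol and the highest mean was used. Of 30559 probe sets 16789 had 1 symbol in the platform annotation, which can be old, 343 had several and 13427 had none. In the lists 27 genes had several probe sets, and in 5 of these (ZNF503, MIR1255B, RPL35, PSMA1 and RPLP2) the differences had both signs. Season and fertility were fitted with limma (lmFit, eBayes) on all 10 arrays with a mean per season by fertility group. Both kinds of script were tested on simulated data.

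The arrays, the gene lists and the rules were chosen with earlier results of these data known, and the list of microRNA loci was added after values were seen. Genes were named by rule: 15 per direction by difference after quantile normalization among probe sets separated on both scales with a mean of at least 6 in the brighter set of arrays, up to 4 per list by size of difference, all measured sperm chromatin genes, the 15 brightest probe sets with a symbol, and the cell type markers. Classes by protein length and chromosome, planned at first, were not analysed here, and no sequences are shown. Alternatives were subtraction of array medians, a minimum mean of 6 over all arrays, values above the floor on all arrays (chosen after seeing the data), other splits of arrays, differences of means, stallion 9 in autumn, and each array left out.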

Additional observations from a re-analysis of the deposited data

How the results depend on the processing

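All differences are low-signal minus other arrays on the log2 scale, and with 3 and 7 arrays, 1 per stallion, the array number limits the precision; no paired analysis was possible because the groups share no replicate numbers, each number being a stallion. The 3468 lower and 241 higher probe sets became 1172 and 1668 after quantile normalization and 1213 and 1724 with array medians subtracted. With array 6 moved to the low-signal arrays they became 1757 and 100. Among the 7690 probe sets with a mean of at least 6, 1436 (18.7%) were lower and 72 (0.936%) higher. The shares over all probe sets were 11.3% and 0.789%. Using only groups that hold a low-signal array gave 4848 lower and 397 higher. Leaving out 1 array at a time gave 3647 to 5450 lower and 284 to 676 higher, the counts moving by over 1.5 times without array 2 (5450 and 676) and, for higher probe sets, without array 9 (651) or 10 (456); fewer arrays separate by construction more often. The median over all probe sets, -0.20, was 0.037 after quantile normalization, 0.07 with medians subtracted, -0.32 at a mean of at least 6, and -0.225 to -0.19 with an array left out. After quantile normalization 18 list medians turned positive: axoneme (0.076), acrosome (0.032), ion channels (0.013), spermatogonia (0.167), Sertoli and Leydig cells (0.077), epididymis (0.111), epithelium (0.147), erythroid cells (0.026), heat shock (0.119), mitochondrial ribosome (0.041), proteasome (0.034), zinc fingers (0.045), solute carriers (0.016), leukocytes (0.063), stroma and endothelium (0.099), keratins (0.133), cadherins (0.133) and microRNA loci (0.08). With medians subtracted those that turned positive were axoneme (0.03), spermatogonia (0.13), Sertoli and Leydig cells (0.08), epididymis (0.13), epithelium (0.09), mitochondrial ribosome (0.04), zinc fingers (0.04), olfactory receptors (0.02), solute carriers (0.01), leukocytes (0.1), stroma and endothelium (0.12), keratins (0.125), cadherins (0.15) and microRNA loci (0.2). Of 300 list medians with an array left out, all kept their sign and 8 moved beyond the spread between arrays. The 1 season call and 1 fertility call became 0 and 0 without the 3 low-signal arrays. With 1 array left out they ran from 0 to 18 for season (2 without array 1, 0 without arrays 2 or 5, 18 without array 6) and from 0 to 13 for fertility (0 without arrays 2, 4, 5 or 9, 13 without array 6). Without array 1 the fertility call had the opposite sign to that with all arrays, in a fit that left a single array in the autumn high-fertility group. The counts stayed at 1 with quantile normalization, a mean of at least 6, a term for the low-signal arrays or stallion 9 in autumn. The causes were not tested.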

Other observations

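A few single genes in lists that lay near the shift of all genes were lower on both scales. Among heat shock proteins and chaperones, with a median of -0.27 over 34 genes as deposited and 0.12 after quantile normalization, DNAJC5B, a cysteine string protein gene, stood at 7.63, 7.73 and 6.98 on arrays 2, 9 and 10, against 8.99 to 10.82 with a median of 9.49 on the others. CST8, an epididymal and spermatid cystatin, stood at 5.18, 5.59 and 4.33, against 6.44 to 7.94 with a median of 6.68. CCR7, a chemokine receptor of lymphocytes, stood at 5.02, 5.47 and 4.97, against 5.99 to 6.73 with a median of 6.19. It was the 1 gene of 33 (3.03%) in the leukocyte list that was lower after quantile normalization, against 4.95% of all genes.

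MicroRNA loci, 318 probe sets with a MIR symbol, had the smallest shift of the 30 lists as deposited, a median of -0.05, and 0.08 after quantile normalization. Of these, 16 (5.03%) were lower and 8 (2.52%) higher as deposited, against 14.9% and 0.582% of all genes. After quantile normalization 6 (1.89%) were lower and 23 (7.23%) higher, against 4.95% and 5.23% of all genes. The mean signal of the microRNA loci, 4.78, lies close to the floor, where differences are understated. MIR1261 stood at 5.12, 5.41 and 4.34, against 5.65 to 8.28, and MIR363 at 6.44, 6.65 and 6.63, against 5.47 to 6.12. KLK1E2, the horse prostate kallikrein of seminal plasma, varied within both sets, at 5.47, 4.81 and 7.43 against 5.92 to 8.35.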
